A study of Mus musculus with 2 samples.

Results

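The genes described here are the neutrophil-attracting chemokine genes Cxcl1, Cxcl2 and Cxcl3, their receptor gene Cxcr2, and Cxcr4, which encodes the receptor that holds neutrophils in the bone marrow. The 5 genes were chosen by symbol, out of 32285 genes in the count tables. Their transcripts were followed through the leukocytes of subcutaneous B16F10 melanomas, a transplantable tumour line of the mouse. Both groups of mice were wild type and had received bone-marrow-derived macrophages. The macrophages were untreated in the control group, and in the IL4 group they had been exposed to interleukin 4. Leukocytes were sorted by CD45, and 1 single-cell library was made per group, so that 1 control library is set against 1 IL4 library. The number of tumours or mice behind each library, their age and their sex are not stated in the labels. The grouping follows the treatment entry of each sample, since the protocol entry names IL-4 exposure for both libraries. Transferred macrophages and those of the host carry no label that tells them apart here.

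CXCL1, CXCL2 and CXCL3 are small secreted proteins of the ELR-positive CXC family. They bind CXCR2 on neutrophils and draw these cells out of the blood into inflamed tissue, tumours included. Their genes are switched on within a short time by NF-kB after signals from IL-1, TNF or Toll-like receptors, and their messenger RNAs are short-lived. CXCR4 answers to CXCL12, and its level is known to go up as neutrophils age, while that of CXCR2 goes down.

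The ligand genes are neighbours on mouse chromosome 5. On the mm10 build, Cxcl3 (ENSMUSG00000029379) lies at 90786103 to 90789600, Cxcl1 (ENSMUSG00000029380) at 90891241 to 90893115 and Cxcl2 (ENSMUSG00000058427) at 90903871 to 90905938, all on the plus strand and each with 4 exons, so that 119836 bases hold all 3. Cxcr2 (ENSMUSG00000026180) lies on chromosome 1 at 74153989 to 74161246 and Cxcr4 (ENSMUSG00000045382) on the minus strand of the same chromosome at 128588199 to 128592293. All 5 are protein-coding genes. The stretches below are shown because the 3 ligand promoters share the same letters, while the values that follow show how the 3 genes differ between cell types. They were taken from RefSeq (GRCm38.p6, the mm10 assembly), plus strand, 5′ to 3′, from 20 bases before the first motif to 10 bases after the second, and all lie before the start site. Capitals mark GGGAATTTCCC, the longest run of letters (11) found in all 3 windows, which has the form of an NF-kB site, and the TATA box letters ATAAAAG. The windows are chr5:90891154-90891227 for Cxcl1, chr5:90903782-90903858 for Cxcl2 and chr5:90786008-90786088 for Cxcl3.
Cxcl1: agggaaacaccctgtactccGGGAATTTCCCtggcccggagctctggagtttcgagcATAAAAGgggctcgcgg
Cxcl2: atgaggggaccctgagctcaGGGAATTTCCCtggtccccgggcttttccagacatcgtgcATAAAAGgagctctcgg
Cxcl3: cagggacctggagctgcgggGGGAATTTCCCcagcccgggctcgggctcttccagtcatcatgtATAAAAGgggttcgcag

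The NF-kB letters began 71 bases before the start site in Cxcl1, 97 in Cxcl2 and 73 in Cxcl3. These start sites belong to the RefSeq promoters and differ from the gene starts given above. The distances therefore do not count from those gene starts, and differences between the genes depend on the start sites used. In the same order, 26, 29 and 33 bases separated the NF-kB letters from the TATA box letters. Aligned with gaps, the shown stretches of Cxcl1 and Cxcl2 were 71.4% identical, those of Cxcl1 and Cxcl3 65.5% and those of Cxcl2 and Cxcl3 70.2%. Searched on both strands over the 250 bases before each start, GGGAATTTCCC was present in 14 of 32851 promoters of the RefSeq table (0.0426%). The letters ATAAAAG were present in 1588 (4.83%). The Cxcr2 promoter held neither set of letters, and that of Cxcr4 held ATAAAAG only. The AP-1 letters TGANTCA (6.75% of promoters) and the C/EBP letters TTGCNNAA (9.56%) were in none of the 5 windows. The shared run was found in these sequences themselves, the TATA box letters were chosen after they had been seen, and a match is a description of letters, not evidence of binding.

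The deposited matrices held 8994 control and 13873 IL4 barcodes, with 95499107 and 133151428 UMIs (unique molecular identifiers, each counted as 1 captured transcript). After filtering, 8937 and 13762 barcodes remained, with medians of 9207 and 8256.5 UMIs, and 23 barcode sequences occurred in both libraries. Both libraries mixed barcodes with the female transcript Xist and barcodes with Y-linked transcripts. Among barcodes with 1 kind only, the Y-linked ones made up 36.8% in the control against 10.9% in the IL4 library, so animals of both sexes contributed, in unequal parts. For that reason main values are also given for Xist-only barcodes and for Y-only ones. Barcodes with both kinds (1013 control and 1134 IL4) or with neither (1131 and 1343) are in neither set. These sets therefore depend on detection as well as on sex. With 1 library per group no test was run. Each difference compares 2 libraries without a replicate check, and each interval (95%) covers counting error only. Intervals of levels and ratios treat each UMI as an independent draw. UMIs of a gene can be concentrated in few barcodes, and that spread is left out of them. Levels are a gene's summed UMIs per 1000000 UMIs of the same cell type (CPM) with exact Poisson intervals.

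Cell types were gated by 16 marker lists that contained none of the 5 genes, and 10 types had at least 50 barcodes in each library. Neutrophil-like barcodes, gated on S100a8, S100a9, Retnlg, Csf3r and 10 further genes, numbered 385 and 201. Macrophage-like barcodes, gated on the C1q genes, Apoe, Mrc1 and others, numbered 1295 and 1877, and classical monocyte-like barcodes 1074 and 1671. Of the 14 neutrophil markers, 13 and 14 were raised at least 1.5-fold over all other barcodes in the control and the IL4 neutrophil-like gate, and all 13 macrophage markers were raised in the macrophage-like gate of both libraries. The gates left 38.9% of control and 39.3% of IL4 barcodes without a type. B cell-like barcodes (94 and 44) are given as values only.

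The neutrophil-like gate was not free of other RNA. Markers of macrophages summed to 1723 CPM in control and 1698 CPM in IL4 neutrophil-like barcodes, against 12332 and 12300 CPM in macrophage-like ones, and none of the 13 was at 0. At least 3 of the 13 had a UMI in 135 of the 385 control barcodes (35.1%) and 76 of the 201 IL4 barcodes (37.8%). Those barcodes were deeper, with medians of 9752 and 7828.5 UMIs against 2721 and 2456 UMIs in the others, and they held 63.9% and 61.3% of all UMIs in the gate. No doublet caller was run. Values for neutrophil-like barcodes are therefore given with and without them.

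Cxcl2 was the ligand with most UMIs, and its level was highest in neutrophil-like barcodes. It stood at 16171 CPM (16002 to 16341) in control and 16548 CPM (16295 to 16806) in IL4 neutrophil-like barcodes. Among the gated types, macrophage-like barcodes came next, at 5078 and 8663 CPM. Classical monocyte-like barcodes followed at 4147 and 6379 CPM and non-classical monocyte-like ones at 3438 and 4307 CPM. The neutrophil level was 3.18 times that of macrophages in the control library (3.14 to 3.23) and 1.91 times in the IL4 library (1.88 to 1.94). In both libraries the first 4 places in this order were held by the same types, and none of their counting intervals overlapped. All lymphocyte-like and dendritic-like types lay between 1128 and 1756 CPM in control and between 1493 and 2795 CPM in IL4 barcodes.

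Cxcl3 was more unequal between the types. Its level was 1299 CPM (1251 to 1348) in control neutrophil-like barcodes, 10.9 times that of macrophage-like barcodes (119 CPM, 114 to 125). In the IL4 library it was 958 CPM (898 to 1021) in neutrophil-like and 147 CPM (142 to 153) in macrophage-like barcodes, 6.51 times apart. Classical monocyte-like barcodes stood at 101 and 176 CPM, and mature migratory dendritic cell-like barcodes, which carry antigen to lymph nodes, at 48.7 and 54.5 CPM. Conventional dendritic cell types 1 and 2 were lowest in the IL4 library, at 22.9 and 21.7 CPM, and plasmacytoid dendritic cell-like barcodes were lowest in the control at 11.9 CPM.

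Cxcl1 followed another order, with macrophage-like barcodes first. These stood at 206 CPM (199 to 214) in control and 497 CPM (487 to 507) in IL4 barcodes. Classical monocyte-like barcodes had 89.7 and 228 CPM, non-classical monocyte-like ones 67.6 and 160 CPM and mature migratory dendritic cell-like ones 92.2 and 139 CPM. In the control library mature migratory dendritic, classical monocyte, neutrophil, NK, non-classical monocyte and T cell types formed a run in which the intervals of neighbours overlapped (92.2 down to 57.0 CPM). Neutrophil-like barcodes, the highest for both other ligands, had 81.2 CPM (69.6 to 94.1) of Cxcl1 in control and 360 CPM (323 to 399) in IL4 barcodes.

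**Figure D1:**
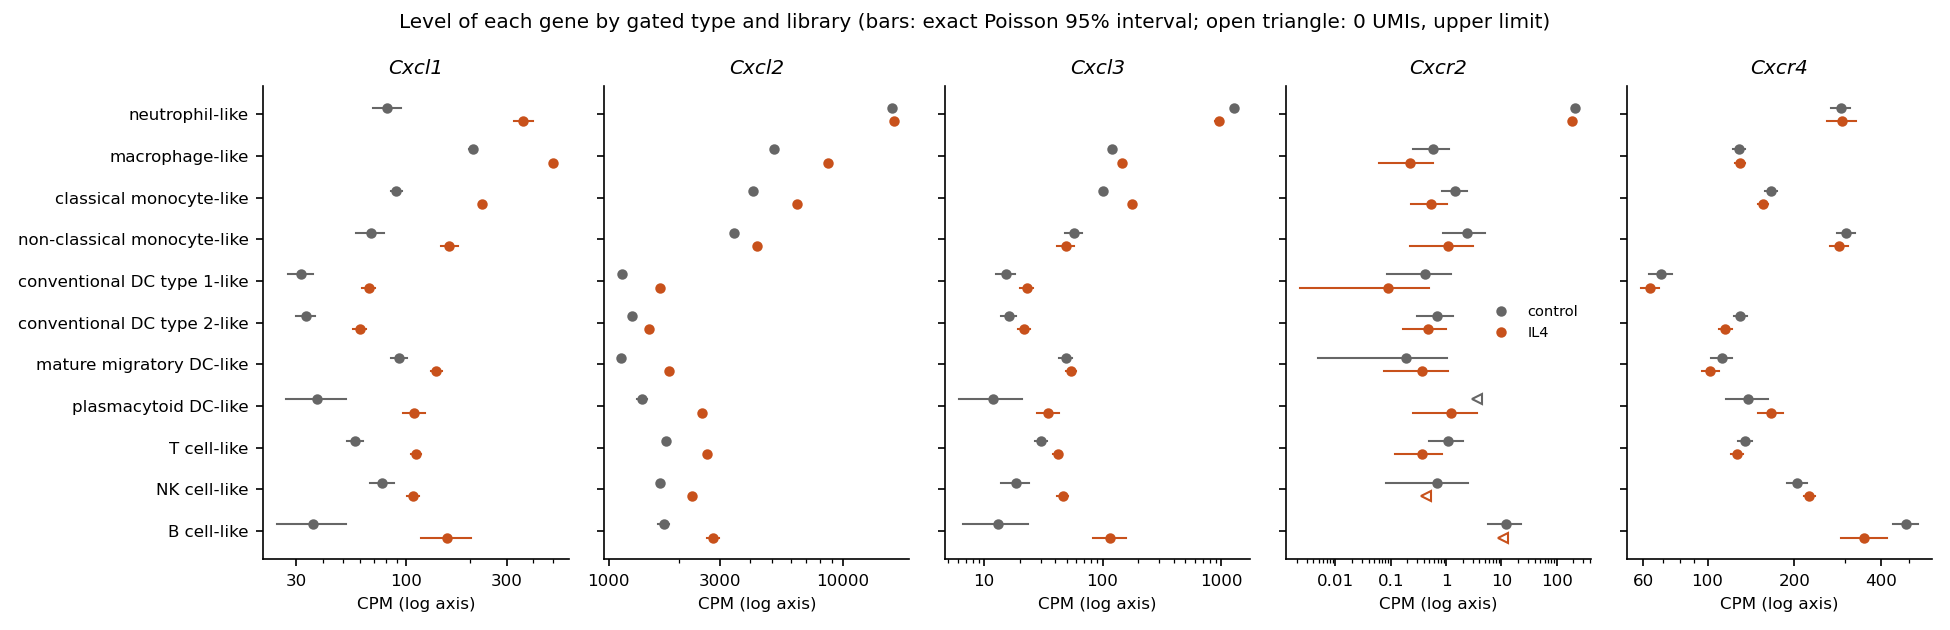
Level of each gene in CPM (log axes, each with its own range) by gated type, for the control (grey) and the IL4 library (orange), with exact Poisson 95% intervals and open triangles for types with 0 UMIs. Cxcl2 and Cxcl3 are highest in neutrophil-like barcodes, Cxcl1 is highest in macrophage-like barcodes, Cxcr2 is near 0 outside neutrophil-like barcodes, and Cxcr4 is spread over all types.

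Ligand UMIs were found in every type, also in T cell-like barcodes, which had 57.0 and 111 CPM of Cxcl1, 1756 and 2634 CPM of Cxcl2 and 30.3 and 41.8 CPM of Cxcl3. Free RNA in the droplets and doublets can give such UMIs, and their part was not tested. After thinning each barcode to 1000 UMIs, 50.7% of control and 55.7% of IL4 T cell-like barcodes had a Cxcl2 UMI, against 72.5% and 89.0% of macrophage-like and 95.6% and 95.3% of neutrophil-like ones. The same shares for Cxcl1 were 4.63% and 6.16% in T cell-like, 10.8% and 23.1% in macrophage-like and 5.21% and 11.0% in neutrophil-like barcodes, and the intervals of the control neutrophil-like and T cell-like shares overlapped. Summed over all UMIs, Cxcl1 in control neutrophil-like barcodes was 1.42 times the T cell-like level (1.19 to 1.70). Its 176 UMIs there lay in 35 of the 385 barcodes, a spread that this interval leaves out. For Cxcl3 the thinned shares were 1.89% and 3.14% in T cell-like, 6.82% and 7.85% in macrophage-like and 38.9% and 30.4% in neutrophil-like barcodes. Median depths were 14628 and 12822 UMIs in T cell-like, 9867 and 8918 UMIs in macrophage-like and 3136 and 2979 UMIs in neutrophil-like barcodes. Before thinning, 90.8% of all control and 94.7% of all IL4 barcodes had a Cxcl2 UMI.

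The proportion of the ligands differed between types. Per 100 UMIs of Cxcl2, neutrophil-like barcodes had 0.502 UMIs of Cxcl1 (0.430 to 0.582) in the control against 2.17 (1.95 to 2.42) in the IL4 library, and macrophage-like barcodes had 4.06 (3.91 to 4.22) and 5.73 (5.61 to 5.86). Mature migratory dendritic cell-like barcodes had the highest ratio, 8.17 and 7.66. Over all kept barcodes the ratio was 2.90 and 4.64, and in conventional dendritic cell type 2-like barcodes 2.65 and 4.02. For Cxcl3 the ratio was lower in the IL4 library in both types, with 8.03 UMIs per 100 of Cxcl2 in control and 5.79 in IL4 neutrophil-like barcodes, and 2.35 and 1.70 in macrophage-like ones.

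Most ligand UMIs lay outside neutrophil-like barcodes. Of all Cxcl1 UMIs, macrophage-like barcodes held 26.7% in the control against 27.9% in the IL4 library while they made up 14.5% and 13.6% of barcodes. Neutrophil-like barcodes held 1.65% and 1.10% of Cxcl1 UMIs. They held 9.50% (9.41% to 9.60%) of control and 2.35% (2.32% to 2.39%) of IL4 Cxcl2 UMIs, and 24.5% (23.7% to 25.3%) and 6.18% (5.80% to 6.58%) of Cxcl3 UMIs. Barcodes without a type held 43.3% and 41.4% of Cxcl1, 42.5% and 42.1% of Cxcl2 and 42.3% and 44.2% of Cxcl3 UMIs. The orders of types above leave these out. Leiden clusters, made without the 5 genes, included one without a type name, led by Arg1, Egln3 and Ero1l (1255 control and 677 IL4 barcodes, gated or not). Cxcl2 stood there at 6964 and 9684 CPM and Cxcl3 at 399 and 534 CPM, above the macrophage-like gate. It held 4368 of 11483 control and 2529 of 15155 IL4 Cxcl3 UMIs.

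**Figure D2:**
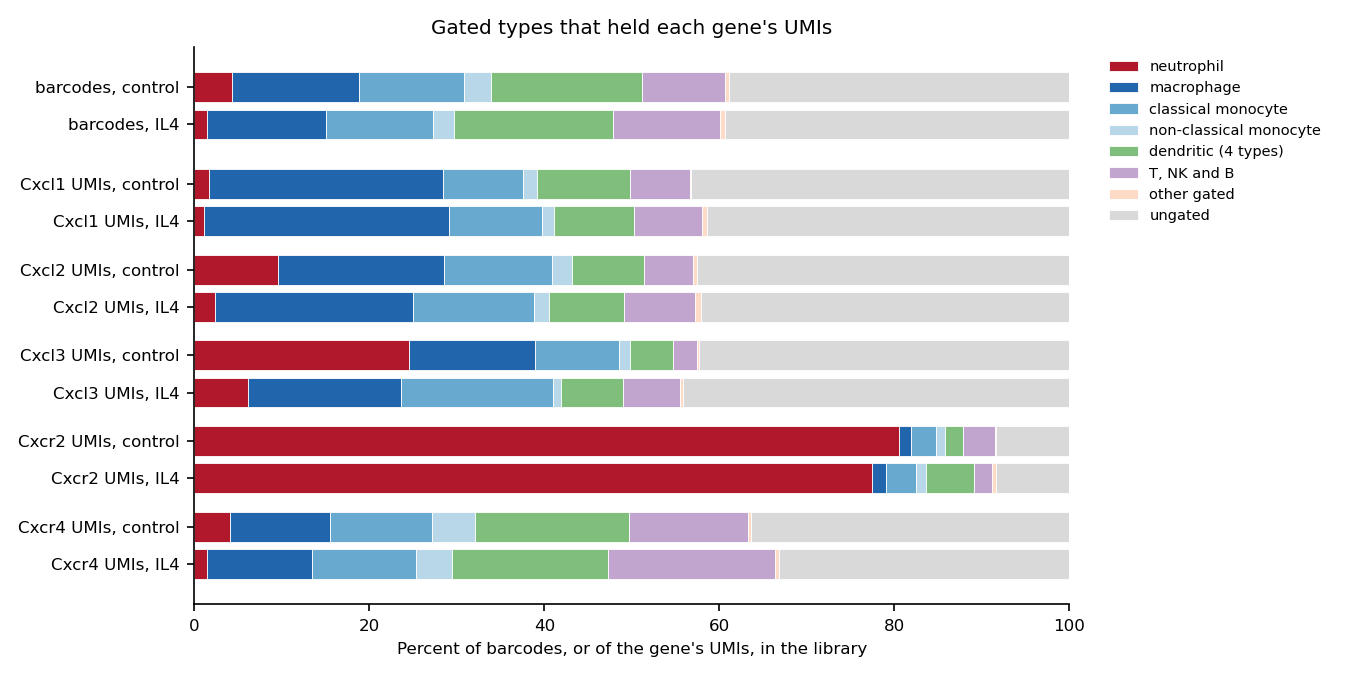
Share of barcodes (upper pair of bars) and of each gene's UMIs (lower bars) by gated type, in percent of each library. Neutrophil-like barcodes (red) hold 80.6% and 77.4% of Cxcr2 UMIs, and their part of the Cxcl3 UMIs is 24.5% in the control against 6.18% in the IL4 library.

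Cxcr2, the receptor for all 3 ligands, was nearly restricted to neutrophil-like barcodes. These held 464 of 576 control UMIs (80.6%, 77.1% to 83.7%) and 185 of 239 IL4 UMIs (77.4%, 71.6% to 82.5%), although they made up 4.31% and 1.46% of barcodes. Its level in the gate was 214 CPM (195 to 234) in control and 189 CPM (163 to 218) in IL4 barcodes. Macrophage-like barcodes had 8 and 4 UMIs (0.577 and 0.223 CPM), T cell-like ones 9 and 5 UMIs, and NK cell-like ones 2 and 0. Outside the gate the level was 1.20 CPM (0.990 to 1.45) and 0.409 CPM (0.308 to 0.534). In the control library 10 UMIs lay in B cell-like barcodes (12.0 CPM, 5.77 to 22.1), and 0 in those of the IL4 library (upper limit 10.7 CPM).

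Between the libraries, the ratio of the Cxcr2 level within neutrophil-like barcodes depended on how the barcodes were chosen. In the gate the ratio of IL4 to control was 0.884, with an interval from 0.741 to 1.05 that spans 1. In barcodes with UMIs of fewer than 3 macrophage markers, Cxcr2 stood at 371 CPM (329 to 416, 250 barcodes) and 386 CPM (326 to 454, 125 barcodes), a ratio of 1.04 (0.847 to 1.27). In the remaining neutrophil-like barcodes it was 126 and 65.0 CPM. Xist-only neutrophil-like barcodes had 104 CPM (81 to 132) and 91.8 CPM (67.5 to 122), a ratio of 0.885 (0.597 to 1.30). Y-only ones had 270 CPM (230 to 317) and 171 CPM (109 to 254), and there the ratio was below 1 beyond counting error (0.632, 0.393 to 0.975). In Leiden clusters, used in place of the gates, it was above 1 beyond counting error, with a log2 ratio of 0.31 (0.053 to 0.56) against -0.18 (-0.43 to 0.071) in the gate. With a looser gate the log2 ratio was -0.60 (-0.86 to -0.36), and without the 5% of barcodes with most UMIs -0.27 (-0.53 to -0.023), both below 0 beyond counting error. After thinning, 22.2% of control and 18.3% of IL4 neutrophil-like barcodes had a Cxcr2 UMI, against 0.421% and 0.116% of T cell-like ones. Over all kept barcodes Cxcr2 stood at 6.04 CPM (5.56 to 6.55) and 1.80 CPM (1.58 to 2.04), 3.36 times lower in the IL4 library, beside a neutrophil-like share that was 2.95 times lower.

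Cxcr4, the CXCL12 receptor, was present in every type. The highest levels were in B cell-like barcodes (487 and 349 CPM), non-classical monocyte-like barcodes (303 and 286 CPM) and neutrophil-like barcodes (289 CPM, 267 to 313, and 291 CPM, 259 to 327), and the last pair of types did not differ beyond counting error in either library. NK cell-like barcodes followed with 204 and 225 CPM. Conventional dendritic cell type 1-like barcodes were lowest, with 68.9 and 63.3 CPM. In neutrophil-like barcodes the ratio of IL4 to control was 1.01 (0.873 to 1.16), and it was 0.949 (0.770 to 1.16) without the barcodes that held 3 or more macrophage markers. Per 100 UMIs of Cxcr2 these cells had 135 UMIs of Cxcr4 (120 to 153) in control and 154 (128 to 186) in IL4 barcodes. In thinned neutrophil-like barcodes, UMIs of both receptors occurred together in 25 of 365 control (6.85%, 4.48% to 9.95%) and 10 of 191 IL4 barcodes (5.24%, 2.54% to 9.42%). The product of the separate shares is 5.78% and 4.03%.

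The ligand levels of neutrophil-like barcodes differed with the number of macrophage markers in the barcode. In barcodes with fewer than 3 macrophage markers, Cxcl1 stood at 61.4 CPM (45.2 to 81.4, 48 UMIs) in the control against 92.5 CPM (64.4 to 129, 35 UMIs) in the IL4 library, a ratio of 1.51 (0.947 to 2.38) whose interval spans 1. Over the whole gate the ratio was 4.43 (3.69 to 5.34), and in the barcodes with 3 or more markers Cxcl1 stood at 92.4 and 528 CPM. Cxcl2 was 26675 and 22258 CPM in the barcodes with fewer than 3 markers, a ratio of 0.834 (0.813 to 0.856), against 1.02 in the whole gate. Cxcl3 was 2417 and 1528 CPM there, a ratio of 0.632 (0.575 to 0.694), or 1.58 times lower in the IL4 library, against 0.738 (0.684 to 0.794) in the whole gate. Barcodes with fewer than 3 markers were also shallower (medians of 2721 and 2456 UMIs against 9752 and 7828.5 UMIs). Depth and macrophage RNA cannot be told apart by this split, and the part of either in these values was not tested.

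**Figure D3:**
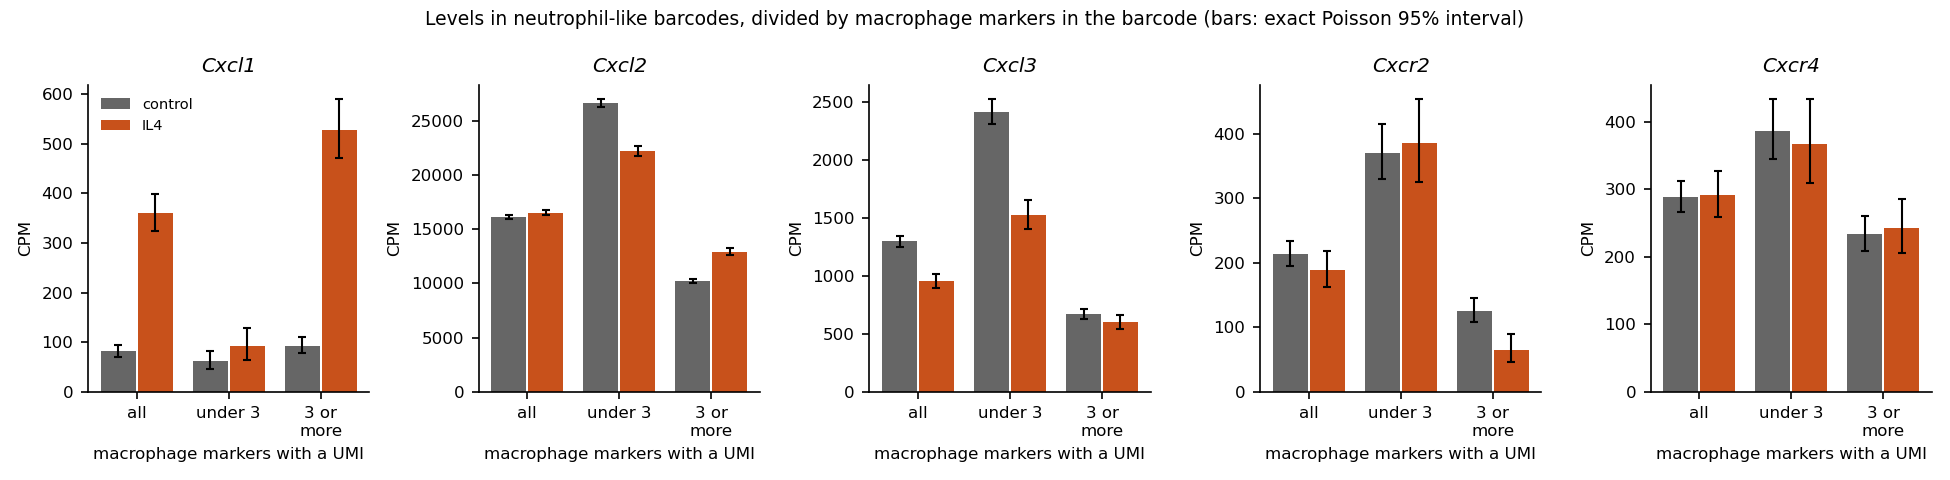
Level of each gene in CPM (linear axes from 0) in all neutrophil-like barcodes, in those with a UMI of fewer than 3 of the 13 macrophage markers and in those with 3 or more, for the control (grey) and IL4 library (orange), with exact Poisson 95% intervals. The Cxcl1 bars of the libraries lie at 61.4 and 92.5 CPM in the middle pair and at 92.4 and 528 CPM in the right pair, and those of Cxcr2 at 371 and 386 CPM in the middle pair.

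Set against the control library, the 3 ligands were higher in macrophage-like barcodes of the IL4 library. Cxcl1, at 206 and 497 CPM, was 2.41 times higher (2.31 to 2.51). Cxcl2, at 5078 and 8663 CPM, was 1.71 times higher (1.69 to 1.72), and Cxcl3, at 119 and 147 CPM, 1.23 times (1.16 to 1.31). Cxcr4 did not differ beyond counting error (129 and 129 CPM, interval of the ratio 0.943 to 1.07). A gene was counted as higher or lower at 1.5-fold on log2(CPM + 1) among genes with at least 20 UMIs. By that rule Cxcl1 (log2 ratio 1.26) and Cxcl2 (0.77) were higher, and Cxcl3 (0.30) and Cxcr4 (0.00) were neither. In macrophage-like barcodes 2.9% of 12790 genes were higher and 4.28% lower, and the median log2 ratio of all of them was -0.09.

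Classical monocyte-like barcodes had the same order of libraries for all 3 ligands. The log2 ratio was 1.34 for Cxcl1, 0.62 for Cxcl2 and 0.80 for Cxcl3, each past 1.5-fold, while 2.47% of 11960 genes were higher and 3.46% lower. Cxcl3 was 1.75 times higher (1.63 to 1.88) there. Over the 10 types, Cxcl1 was at least 1.5-fold higher in the IL4 library in 8 and lower in 0, and its log2 ratio ranged from 0.48 in NK cell-like to 2.13 in neutrophil-like barcodes. Cxcl2 was higher in 4 types and Cxcl3 in 3 (classical monocyte, plasmacytoid dendritic and NK types), and both were lower in 0. The background in the other types was 8.82% of genes higher and 11.3% lower in neutrophil-like, 4.58% and 7.21% in non-classical monocyte-like and 7.98% and 9.77% in plasmacytoid dendritic cell-like barcodes. It was 3.88% and 4.95% in conventional dendritic cell type 1-like, 2.31% and 4.54% in type 2-like, 3.39% and 5.37% in mature migratory dendritic cell-like, 2.17% and 2.83% in T cell-like and 4.17% and 5.43% in NK cell-like barcodes. The ratio for Cxcl1 was above 1 beyond counting error in all 10 types, T cell-like barcodes included (1.95, 1.76 to 2.17), so a ratio of the same sign was also present where the UMIs can be free RNA. With the T cell-like level subtracted from both libraries, the macrophage-like log2 ratio was 1.36 for Cxcl1 and 0.86 for Cxcl2.

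Cxcl3 did not move in one direction. It was lower in neutrophil-like barcodes of the IL4 library and higher, beyond counting error, in 7 of the other types, and over all kept barcodes its level was 120 CPM (118 to 123) against 114 CPM (112 to 116). Cxcl1 over all kept barcodes was 112 CPM in control and 240 CPM in IL4 barcodes (ratio 2.14, 2.10 to 2.19), with 1.01% of all genes higher and 0.983% lower. Cxcl2 was 3870 and 5180 CPM (1.34, 1.33 to 1.34) and Cxcr4 163 and 147 CPM (0.897, 0.878 to 0.916). Cxcr4 was past 1.5-fold in 0 of the 10 types.

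**Figure D4:**
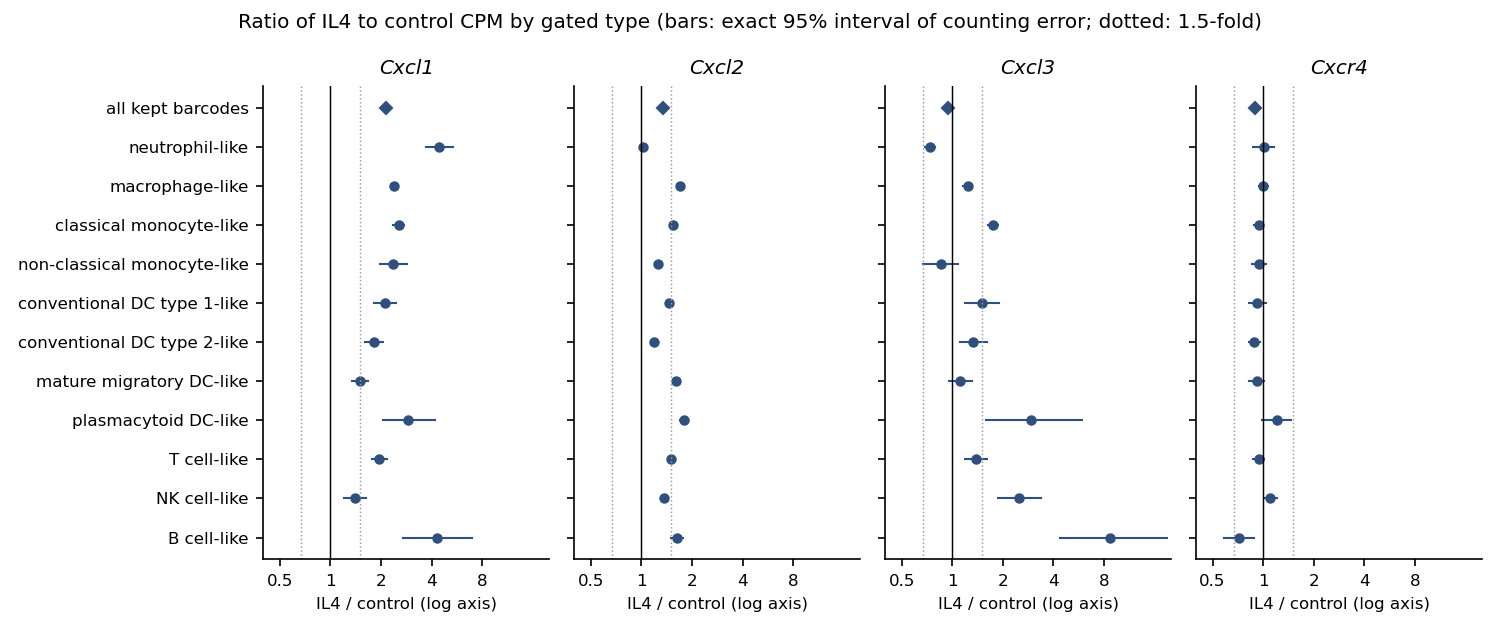
Ratio of IL4 to control CPM (log axis) of the ligand genes and Cxcr4 in all kept barcodes (diamonds) and in each gated type (points), with exact 95% intervals of counting error and dotted lines at 1.5-fold. Cxcl1 lies above 1 in every type shown, Cxcl3 lies below 1 in neutrophil-like barcodes and above it in macrophage-like and classical monocyte-like ones, and Cxcr4 stays between the dotted lines.

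Macrophage-like barcodes did not have the same makeup in the libraries. Leiden clusters made without the 5 genes gave 6 clusters with macrophage names. The largest part of the gate lay in a cluster led by Cbr2, Ccl8 and Folr2 in the control (367 of 1295) and in one led by Il1a, Abca1 and Il10 in the IL4 library (600 of 1877). Levels and ratios of single clusters cover all barcodes of a cluster, inside or outside the macrophage-like gate. The gate held 36.6% of the control barcodes in the 6 clusters and 29.1% of the IL4 ones. Cxcl1 stood at 613 and 820 CPM in the cluster led by Il1a and at 150 and 420 CPM in the one led by Cbr2. It was higher in the IL4 library in all 6 clusters, by 1.34 to 3.38 times, as was Cxcl2, by 1.15 to 2.52 times. The ratio for Cxcl3 was above 1 in 5 of the 6, beyond counting error in 3 of them. With control macrophage-like barcodes weighted over the clusters as in the IL4 library, the control level of Cxcl1 was 259 CPM and the ratio 1.92, and Cxcl2 was 5937 CPM with a ratio of 1.46, short of 1.5-fold.

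Within Xist-only barcodes, macrophage-like cells had 164 CPM (155 to 174) of Cxcl1 in control and 478 CPM (466 to 489) in IL4 barcodes. Within Y-only barcodes they had 284 CPM (268 to 301) and 498 CPM (465 to 532). The order of the libraries was the same in both, and the ratios were 2.91 (2.74 to 3.10) and 1.75 (1.60 to 1.92). Cxcl2 was 1.90 and 1.85 times higher and Cxcl3 1.46 and 1.67 times. In T cell-like barcodes the order of Cxcl1 was not the same, with a ratio of 1.91 (1.62 to 2.26) in Xist-only and 0.541 (0.298 to 0.929, 69 and 17 UMIs) in Y-only barcodes. Cxcl2 turned there as well, with 1.71 (1.66 to 1.77) in Xist-only and 0.801 (0.739 to 0.867) in Y-only barcodes. For Cxcl3 the T cell-like ratios were 1.30 (1.02 to 1.67) and 0.790 (0.434 to 1.38).

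Beside these levels, the share of neutrophil-like barcodes was lower in the IL4 library. It was 4.31% of kept barcodes (3.90% to 4.75%) in the control against 1.46% (1.27% to 1.68%) in the IL4 library, 2.85 points lower (interval of the difference -3.33 to -2.39). Without the barcodes of 3 or more macrophage markers the difference was -1.93 points (-2.32 to -1.56). Among Xist-only barcodes the share was 2.16% and 0.776% (93 control and 78 IL4 neutrophil-like barcodes). Among Y-only barcodes it was 4.25% and 2.04% (106 and 25). The rest of the 385 and 201 neutrophil-like barcodes had both kinds of transcript or neither. Within 0.1 of the limits that set the gate, in score or in lead over the next type, lay 61 control and 70 IL4 barcodes. Their highest score was that for neutrophils, and they lay on either side of the limits, so not all are among the gated barcodes. In these 2 libraries the lower neutrophil-like share stood beside higher macrophage-like levels of Cxcl1 and Cxcl2, in all kept, Xist-only and Y-only barcodes. With 2 libraries no relation between them can be tested. How cells were sorted and recovered can also set such a share.

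**Figure D5:**
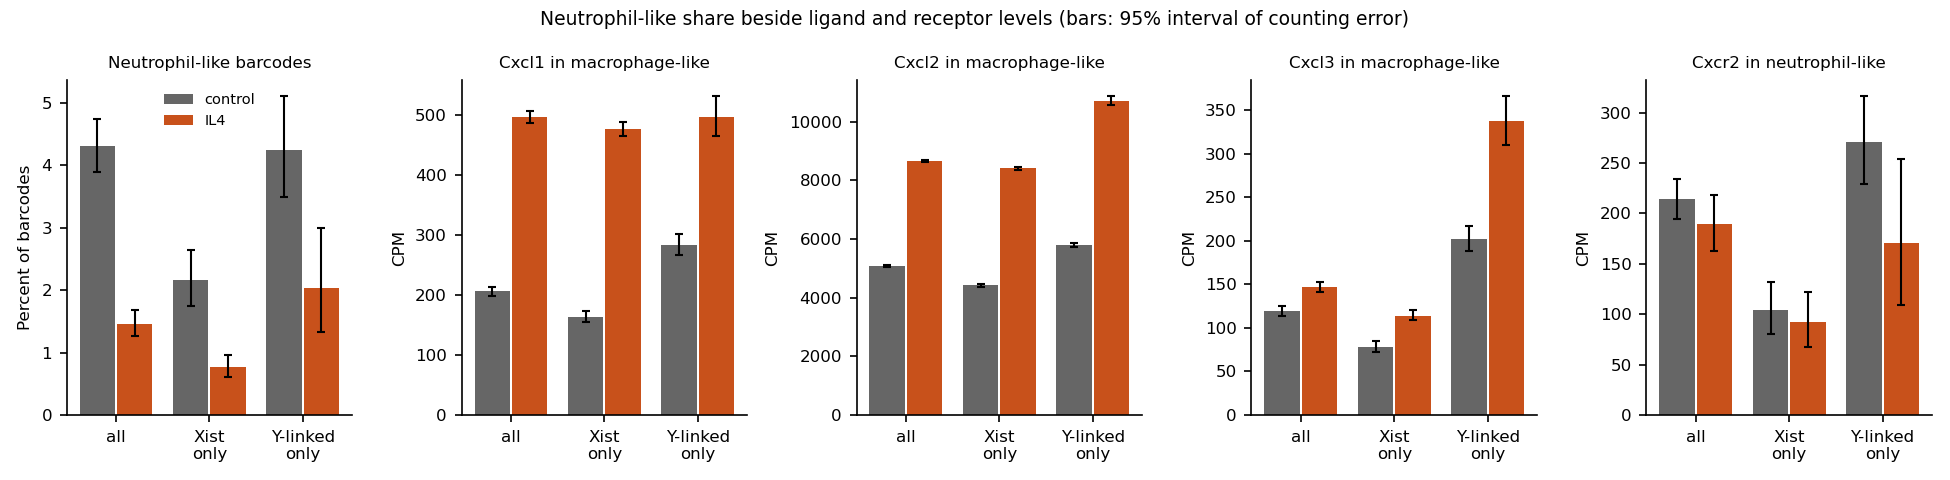
Neutrophil-like share in percent of barcodes, ligand levels in macrophage-like barcodes and the Cxcr2 level in neutrophil-like barcodes (CPM, linear axes from 0) for all kept, Xist-only and Y-only barcodes of the control (grey) and IL4 library (orange), with 95% intervals of counting error. In each pair the share is lower in the IL4 library (4.31% against 1.46% over all barcodes) and Cxcl1 in macrophage-like barcodes is higher (206 against 497 CPM).

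Cxcl1 UMIs were concentrated in few cells. In control macrophage-like barcodes 998 of 1295 had none, and the 10% of barcodes with most held 86.4% of them. In the IL4 library 1098 of 1877 had none and the top 10% held 65.3%. The highest barcode had 86 and 136 UMIs. Cxcl2 was spread more evenly, with 90 and 27 macrophage-like barcodes without a UMI, a median of 33.6 and 81.3 UMIs per 10000, and 40.2% and 29.0% of UMIs in the top 10%. For Cxcl3 the top 10% held 94.5% and 91.5% in macrophage-like and 58.3% and 64.6% in neutrophil-like barcodes. The neutrophil-like median of Cxcl2 was 177 and 152 UMIs per 10000.

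In macrophage-like barcodes Cxcl1 was detected more often beside Cxcl2, which itself was in 72.5% and 89.0% of them after thinning. In thinned macrophage-like barcodes, Cxcl1 was detected in 14.4% (12.2% to 16.8%) of those with a Cxcl2 UMI and 1.42% (0.464% to 3.29%) of those without in the control, and in 25.2% (23.1% to 27.3%) and 6.34% (3.42% to 10.6%) in the IL4 library. Of thinned barcodes with Cxcl3, 29.9% and 38.4% had Cxcl1, against 9.42% and 21.8% of the others. Control neutrophil-like barcodes had Cxcl1 in 5.16% (3.09% to 8.03%) of those with Cxcl2 and 6.25% (0.158% to 30.2%) of those without. In the IL4 library these shares were 11.5% (7.29% to 17.1%) and 0% (0% to 33.6%), and the intervals overlapped in both libraries. In neutrophil-like barcodes Cxcr2 was detected in 21.8% (15.3% to 29.5%) of control barcodes with Cxcl3 and 22.4% (17.1% to 28.5%) of those without, and in 20.7% (11.2% to 33.3%) and 17.3% (11.3% to 24.8%) in the IL4 library, a difference within counting error.

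The other ligands and receptors of the axis ranged from a few UMIs to 37278 in the control library (Mif, over all kept barcodes). Cxcl5, a further CXCR2 ligand, had 3 control and 32 IL4 UMIs in macrophage-like barcodes (0.216 and 1.78 CPM). Ppbp, the gene of the platelet chemokine CXCL7, had 30.7 and 19.9 CPM there, a log2 ratio of -0.60, and Pf4, which encodes CXCL4 and is itself a gate marker, 1140 and 1015 CPM. Ackr3, a scavenger receptor for CXCL12, had 2.60 and 0.390 CPM. Cxcr1, the companion of Cxcr2, had 22 UMIs in control and 11 in IL4 barcodes, of which neutrophil-like barcodes held 19 and 9. Cxcl12, the CXCR4 ligand made mainly by stromal cells, had 13 and 28 UMIs over all kept barcodes, and Cxcl15, a lung CXC ligand, 7 and 1. Of the 9 genes in this list, 5 had at least 20 UMIs in macrophage-like barcodes, with Cxcl5 higher and Ppbp and Ackr3 lower. The shares over all genes were 2.9% higher and 4.28% lower there, and 8.82% and 11.3% in neutrophil-like barcodes. In neutrophil-like barcodes 3 had 20 UMIs, and of these Mif, a cytokine that also binds CXCR2 and CXCR4, was lower (462 and 281 CPM, and 511 and 301 CPM in those with fewer than 3 macrophage markers).

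Genes that induce the chemokines or control their transcripts were higher in part. Of 28 such genes, 9 were higher and 0 lower in macrophage-like barcodes, beside 2.9% of all genes higher and 4.28% lower. Their median log2 ratio was 0.32, against -0.09 over all genes. Il1a, encoding interleukin 1 alpha, stood at 20.9 and 46.7 CPM (2.24 times) and Tnf at 267 and 544 CPM (2.04 times). Il1rn, the gene of the IL-1 receptor antagonist, stood at 147 and 267 CPM, and Il1r1, the signalling receptor, at 4.76 and 9.41 CPM. The others were Il1b, Cd14, Nfkb1, Nfkbia and Tnfaip3, at 1.61 to 1.74 times. These genes were chosen with earlier results of these data known, and the list was not set against others. In neutrophil-like barcodes 7 of the 28 were higher and 0 lower (median 0.26, against 0.00 over all genes), with 8.82% of 8331 genes higher there and 11.3% lower. Il1a stood at 30.4 and 98.1 CPM and Tnf at 206 and 431 CPM. In the barcodes with fewer than 3 macrophage markers, 7 of the 27 genes with 20 UMIs were higher and 1, Jun, was lower (median 0.14, against 0.09 over all genes), while 918 of all 5251 genes were higher there and 648 lower. Il1a stood at 47.3 and 119 CPM and Tnf at 178 and 457 CPM in these. In classical monocyte-like barcodes 6 of 28 were higher and 0 lower (median 0.29, against -0.05 over all genes), beside 2.47% of all genes higher and 3.46% lower.

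Signalling genes below the receptors were mostly within 1.5-fold over the whole gates. Of 20 genes for G proteins, kinases, arrestins and regulators of G protein signalling, 17 in neutrophil-like, 16 in macrophage-like and 20 in classical monocyte-like barcodes were within 1.5-fold. In macrophage-like barcodes 1 was higher and 3 were lower, beside 2.9% and 4.28% of all genes, and in neutrophil-like barcodes 1 was higher and 2 were lower, beside 8.82% and 11.3%. In neutrophil-like barcodes Grk3, a receptor kinase gene, was higher (15.7 and 38.8 CPM, 34 and 38 UMIs), and Arrb1, encoding beta-arrestin 1, was lower (66.9 and 30.7 CPM), as was Rgs18 (18.9 and 10.2 CPM, 41 and 10 UMIs, ratio 0.541, 0.241 to 1.10). Without the barcodes of 3 or more macrophage markers, 4 of the 18 genes with 20 UMIs were higher and 1 was lower, beside the 918 and 648 of 5251 genes given above. The higher ones were Grk3, Grk6 (2.53 times, 9 and 11 UMIs), the phosphoinositide kinase subunit gene Pik3r5 (1.89 times) and the Rac activator gene Prex1 (1.74 times). Grk3 stood at 8.95 and 39.7 CPM (7 and 15 UMIs) and Arrb1 at 90.8 and 34.4 CPM, while Rgs18 had 14 and 5 UMIs. In macrophage-like barcodes Rgs1, which dampens chemokine receptor signals, was higher (764 and 1168 CPM) and Grk5, Arrb1 and Rgs18 were lower.

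Genes for other neutrophil attractants and for neutrophil production differed in part. Of 14 attractants and receptors, 2 were higher and 3 lower in macrophage-like barcodes (median log2 ratio -0.27, against -0.09 over all genes), beside 2.9% of all genes higher and 4.28% lower. Ccl3, encoding MIP-1 alpha, stood at 854 and 1351 CPM and the formyl peptide receptor gene Fpr1 at 4.40 and 8.30 CPM. The lower ones were Alox5, the 5-lipoxygenase gene of leukotriene synthesis (12.3 and 4.68 CPM), and S100a8 and S100a9 (8.80 and 3.56, and 14.8 and 5.40 CPM), which are neutrophil markers. The 14 neutrophil markers summed to 542 and 614 CPM in this gate, and their part in these values was not tested. In neutrophil-like barcodes Ccl3 was lower (2674 and 1780 CPM), also in those with fewer than 3 macrophage markers (4548 and 2699 CPM). Of 9 production and survival genes with 20 UMIs in macrophage-like barcodes, 2 were higher and 0 lower. These were Csf3, encoding G-CSF, at 2.31 and 7.13 CPM, and Csf2, encoding GM-CSF, with 3 and 62 UMIs. Csf3r, the G-CSF receptor gene and a gate marker, stood at 653 and 560 CPM in neutrophil-like barcodes.

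The state of the neutrophil-like barcodes was described by 3 further lists. Of 12 adhesion and ageing genes, which include Cxcr2 and Cxcr4, Cd177, a gate marker, was higher (12.5 and 45.0 CPM, 27 and 44 UMIs) and 0 were lower. Of 10 granule and effector genes with 20 UMIs, Ltf, Lcn2 and Cybb were higher and Padi4, the enzyme gene of chromatin release, was lower (37.8 and 20.4 CPM). Lcn2, encoding lipocalin 2 and a gate marker, stood at 166 and 255 CPM. Of 9 tumour-associated genes, the scavenger receptor gene Olr1 was higher (92.2 and 236 CPM) and Hilpda, a hypoxia-induced lipid droplet gene, was lower (1046 and 412 CPM). Ptgs2, encoding cyclooxygenase 2, stood at 752 and 545 CPM, within 1.5-fold. In barcodes with fewer than 3 macrophage markers, Hilpda stood at 1700.1 and 563 CPM, Olr1 at 151 and 288 CPM, Cybb, an oxidase subunit gene, at 130 and 357 CPM and Padi4 at 69.0 and 26.4 CPM, each past 1.5-fold in the same direction. Lcn2, at 299 and 404 CPM, was within 1.5-fold there, and Cd177 and Ltf had under 20 UMIs. Of the 9 tumour-associated genes 4 were lower there, Ptgs2, Vegfa and Cstb besides Hilpda, while 918 of all 5251 genes were higher and 648 lower. Thinned shares, the concentration of UMIs and the likeness between genes are given for the whole gate only. Counts of 1 direction in this gate lie beside the 8.82% and 11.3% of all genes given above.

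Across 20 profiles (10 types in 2 libraries) and 12310 genes, the genes whose log2 level was most like that of each of the 5 were ranked by Pearson's r. The profiles share libraries and free RNA, so r is a description. For Cxcl2 they were Rab20 (0.98), Ier3 (0.98), Clec4d (0.97), Clec4e (0.97) and Cd14 (0.96). For Cxcl3 they were Clec4d (0.94), Arg2 (0.94), Inhba (0.94), Cxcl2 itself (0.93) and P2ry2 (0.93). For Cxcl1 they were Stam2 (0.90), Mdm2 (0.89), Abca1 (0.87), Zfp703 (0.86) and Tnf (0.86), and r of Cxcl1 with Cxcl2 was 0.72. For Cxcr2 they were Steap4 (0.99), Il1f9, Stfa2l1, Mmp9 (a gate marker) and Prok2 (all 0.98), a profile set by 1 type. For Cxcr4 they included Ypel3 (0.88), Il17ra (0.88), Zfp407 (0.85) and Arhgef3 (0.85).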

How the data were processed

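Single-cell libraries were made by 10x Genomics chemistry from CD45-sorted leukocytes of B16F10 tumours, 1 per group. The deposited values are the authors' raw UMI counts. Cell Ranger 7.2.0 and mm10 are named in the submitters' processing notes. The deposited matrices hold only barcodes of at least 500 UMIs. Barcodes under 500 UMIs or 250 genes, or with over 10% of mitochondrial UMIs, were dropped. For each barcode and type, the mean z-score of log-scaled marker levels was taken. A type was given at a score of at least 0.5, a lead of 0.2 over the next type and at least 3 markers with a UMI. These limits were set after the data had been seen. UMIs were summed per library and type and scaled to CPM. Intervals are exact Poisson (CPM), exact conditional (ratios), Clopper-Pearson (shares) and Newcombe (differences), and cover counting error only. Log2 ratios use 1 CPM as pseudocount. For shares with a UMI each barcode was thinned to 1000 UMIs (random seed 1), and shallower barcodes were left out. Named genes are the 5 members, the 5 most alike genes for each and up to 4 genes per list with the largest ratio in neutrophil-like or macrophage-like barcodes. The other names in the text complete a counted set and were chosen after their values were seen. The members, lists and gates were chosen with earlier results of these data known. In counts drawn as independent Poisson values for the macrophage-like comparison, the ratio intervals held the true ratio for 95.8% of 12790 genes. Such draws leave out the clustering of UMIs within barcodes, so they check the interval formula and not its fit to these data. Software was Python 3.11.15, scanpy 1.11.5, scipy 1.17.1 and numpy 2.4.6. Positions came from GENCODE M21 and matched 32158 of 32285 identifiers. The alternatives tried were other barcode filters, gates, clusters, scalings, pseudocounts and subsets. Protein sequences were not used here. One of the genes most like Cxcr4 is not reported here.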

Additional observations from a re-analysis of the deposited data

Results flagged for a closer look

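Cxcl3 had a log2 ratio of -0.44 in neutrophil-like barcodes, below 0 beyond counting error, while 7 types lay above 0 beyond counting error. The difference between the types was not tested. Cxcr4 had a log2 ratio of 0.14 in NK cell-like barcodes, above 0 beyond counting error, while classical monocyte-like and conventional dendritic cell type 2-like barcodes lay below 0. This difference was not tested either. The values of -0.44 and 0.14 are smaller than 1.5-fold in the gates, while Cxcl3 was past 1.5-fold in 3 of the 7 types above 0. The Cxcl3 ratio in neutrophil-like barcodes was past 1.5-fold in Xist-only barcodes (0.615, or 1.63 times lower) and in those with fewer than 3 macrophage markers (0.632, or 1.58 times lower), and in Y-only ones the interval of its log2 ratio spanned 0 (-0.23, -0.47 to 0.0051).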

How the results depend on the processing

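The neutrophil-like share difference (main value -2.85 points) was -1.39 in Xist-only barcodes, -2.21 in Y-only barcodes, -3.43 with Leiden clusters and -1.93 without neutrophil-like barcodes of 3 or more macrophage markers. The Cxcr2 log2 ratio in neutrophil-like barcodes was -0.60 with the looser gate, -0.66 in Y-only barcodes and 0.31 with Leiden clusters, so its direction was not stable. In macrophage-like barcodes the log2 ratio was, with the stricter gate, 1.36 (Cxcl1), 0.99 (Cxcl2) and 0.46 (Cxcl3). In Xist-only barcodes it was 1.54, 0.93 and 0.54, in Y-only barcodes 0.81, 0.89 and 0.74, centred on the median of all genes 1.36, 0.87 and 0.39, and with Leiden clusters 1.08, 0.72 and 0.91. With the looser gate it was 0.73 for Cxcl2 and 0.073 for Cxcl3. With the T cell-like level subtracted it was 1.36 for Cxcl1 and 0.86 for Cxcl2, and weighted by cluster 0.94 and 0.55. For Cxcl2 it was 0.79 without the 5% of barcodes with most UMIs and 0.75 without mitochondrial and ribosomal genes. The Cxcl1 ratio turned in Y-only T cell-like (-0.86), plasmacytoid (-0.53) and mature migratory dendritic cell-like barcodes (-0.050), in the last also with the T cell-like level subtracted (-0.34), and in Xist-only NK cell-like barcodes (-0.027). Cxcl2 (-0.32) and Cxcl3 (-0.33) turned in Y-only T cell-like barcodes too. The causes were not tested. For the share, the macrophage-like ligand ratios and the neutrophil-like Cxcr2 and Cxcr4 ratios, the other 74 values stayed within the counting interval of the main value. Of the alternative values of all further results, 546 were labelled the same, 158 moved and 2 reversed. The count of 2 does not cover all changes of sign, such as the turned ratios named above. Cxcl2 in neutrophil-like barcodes kept its sign in 13 of 17 alternatives, and Cxcr4 in macrophage-like ones in 12 of 16. Both of these had main log2 ratios near 0 (0.033 and 0.0041). The Cxcl3 log2 ratio ranged from -1.82 to 1.09 in non-classical monocyte-like and from -0.58 to 0.42 in mature migratory dendritic cell-like barcodes. Leiden clusters shared 346 of the 385 control and 139 of the 201 IL4 neutrophil-like barcodes. The cluster weighting and the macrophage marker limit were chosen after seeing the data. No paired analysis was possible because each group has 1 library. Cxcr2 in single types other than neutrophils, Cxcl12 and Cxcl15 are given without a ratio because they had few UMIs.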
